A study of Mus musculus with 46 samples.

Results

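The sequence-specific splicing regulators Esrp1, Esrp2, Mbnl1, Mbnl2, Rbfox2, Ptbp1, Ptbp2, Celf1, Celf2 and Srsf3 are known to differ in level between fibroblasts, epithelial cells, neurons, muscle and stem cells, and were followed here through reprogramming. They were picked by gene symbol. They make up 10 of the 37108 genes in the gene table and 164 of the 106520 transcripts in the transcript table. All 10 passed the filter on low values, but in the time course Esrp1 did so only through NanogBiD samples from D7 on.

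The cells were mouse embryonic fibroblasts (MEF) from E13.5 embryos of OG2 males, which carry a GFP reporter under the Oct4 promoter, crossed with 129 females. Retroviral vectors delivered Oct4 to every reprogrammed culture, together with either native Nanog (NanogWT, labelled Nanog+Oct4) or NanogBiD (labelled NanogN70+Oct4), a Nanog that carries at its N-terminus a piece of SS18 that binds the BRG1 subunit of the BAF chromatin remodelling complex. Infected cultures are mixed populations, and the share of cells that took up the vectors is not given. D0 was the end of the infections. Both combinations then received the same induction medium and, from about D7, the medium with 2 kinase inhibitors and LIF in which stem cells are kept. Sampling covered 8 days between D0 and D12 with 2 replicates per combination, except that NanogBiD had 1 at D8 (31 samples). The series also holds uninfected MEF (n = 2), OG2 embryonic stem cells (mES, n = 1) and 12 samples of established induced pluripotent stem cells (iPSC, 6 per combination, under the labels iPSC1 and iPSC2). The labels do not say whether the NanogWT samples 1# and 1#-2 of iPSC1 are the same clone, and they were counted as separate samples. The labels do not say whether replicates came from separate cultures, so p-values measure the spread between these samples, which may be technical.

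Splicing regulators of this kind bind short motifs in the pre-mRNA and raise or lower the use of nearby exons, so that a gene yields different proteins in different tissues. ESRP proteins drive the epithelial pattern. Muscleblind (MBNL) proteins favour the exon choices of differentiated cells and are known to repress those of embryonic stem cells. PTBP1 holds back neuronal exons and lowers its own paralogue Ptbp2 by causing one of its exons to be skipped. Several of these genes also hold exons through which the protein feeds back on its own transcript.

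Exon sequences are shown for the pairs of transcripts compared further on, because each exon separates the members of a pair. They were read 5′ to 3′ from GENCODE M21 transcripts (GRCm38, the same build as mm10). For Ptbp1 and Mbnl2 the exon is in capitals between 15 bases of each neighbouring exon. For Srsf3 and Itga6 the first 15 bases belong to the exon before, the rest is the exon up to its stop codon, and only the stop codon is in capitals.
Srsf3: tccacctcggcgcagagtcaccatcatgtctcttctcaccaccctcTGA
Ptbp1: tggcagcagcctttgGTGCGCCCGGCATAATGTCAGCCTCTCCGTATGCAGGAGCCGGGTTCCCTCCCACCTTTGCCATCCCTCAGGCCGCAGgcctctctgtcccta
Mbnl2: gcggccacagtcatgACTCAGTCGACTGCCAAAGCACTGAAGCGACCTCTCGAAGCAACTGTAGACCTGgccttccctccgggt
Itga6: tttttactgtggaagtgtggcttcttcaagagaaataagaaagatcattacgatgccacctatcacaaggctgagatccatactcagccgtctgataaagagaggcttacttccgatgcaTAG
The Srsf3 exon lies at chr17:29039454-29039909 on the plus strand, is exon 4 of 7 and is 456 bases long. Its stop codon, at 29039485 to 29039487, comes after 31 bases of the exon, and the transcript is annotated as a target of nonsense-mediated decay. The Ptbp1 exon (chr10:79860117-79860194, plus strand, exon 8 of 14, 78 bases) and the Mbnl2 exon (chr14:120395712-120395765, plus strand, exon 6 of 9, 54 bases) are coding throughout. The Itga6 exon (chr2:71853534-71853663, plus strand, exon 25 of 26, 130 bases) gives integrin alpha 6 another cytoplasmic end, because its own stop codon closes the reading frame.

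Total FPKM per library ranged from 370030 to 464974 in the gene table. Relative depth, read from the smallest steps of the low values, was 0.871 to 1.10 in the libraries of D0 to D7 and 0.809 to 1.02 in the NanogBiD libraries of D8 to D12, but 1.85 to 3.17 in the NanogWT libraries of D8 to D12. From D8 on, combination and depth therefore cannot be told apart. The depth of the transcript table is unknown. The references matched their labels: 6 fibroblast markers summed to 5370 and 5911 FPKM in MEF and to 7.51 in mES, where Twist2 and Prrx1 were listed at 0, and 6 pluripotency markers summed to 0.337 and 1.41 in MEF and to 3463 in mES. In bulk samples, fewer cells of a type and less RNA per cell cannot be told apart.

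Few of the 10 regulators differed between NanogBiD and NanogWT cells in the first days, and more did later. A gene was called when limma's adjusted p was under 0.05 and the levels differed at least 2-fold on the log2(FPKM + 1) scale. No member was called at D0, where 0.760% of all 16842 genes tested were, nor at D1 (1.33%) nor at D3 (3.70%). The count was 2 of 10 at D5 (6.48% of all genes), 3 at D7 (10.4%), 6 at D10 (27.8%) and 4 at D12 (23.4%). Mbnl1 and Mbnl2 were lower with NanogBiD from D5 and Esrp1 was higher from D7. The counts from D7 on include Esrp1. It passed the filter only through NanogBiD samples from D7 on, so its part in the counts is a description only. Celf2 was lower at D10 and D12, and Ptbp2 and Srsf3 were higher at D10.

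Dropping the fold limit gave 1 member at D0 (1.91% of all genes), 0 at D1 (3.27%), 1 at D3 (10.1%), 3 at D5 (16.4%), 6 at D7 (28.4%), 8 at D10 (55.6%) and 8 at D12 (50.7%). Single libraries decided the early counts. Without NanogWT replicate 1 at D5 no member was called at D5, and in a fit to the D5 samples alone 1 was. Mbnl2 was called at D0 without NanogWT replicate 2 of that day (1.24), and Mbnl1 at D3 without NanogBiD replicate 2 (-1.21).

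**Figure D1:**
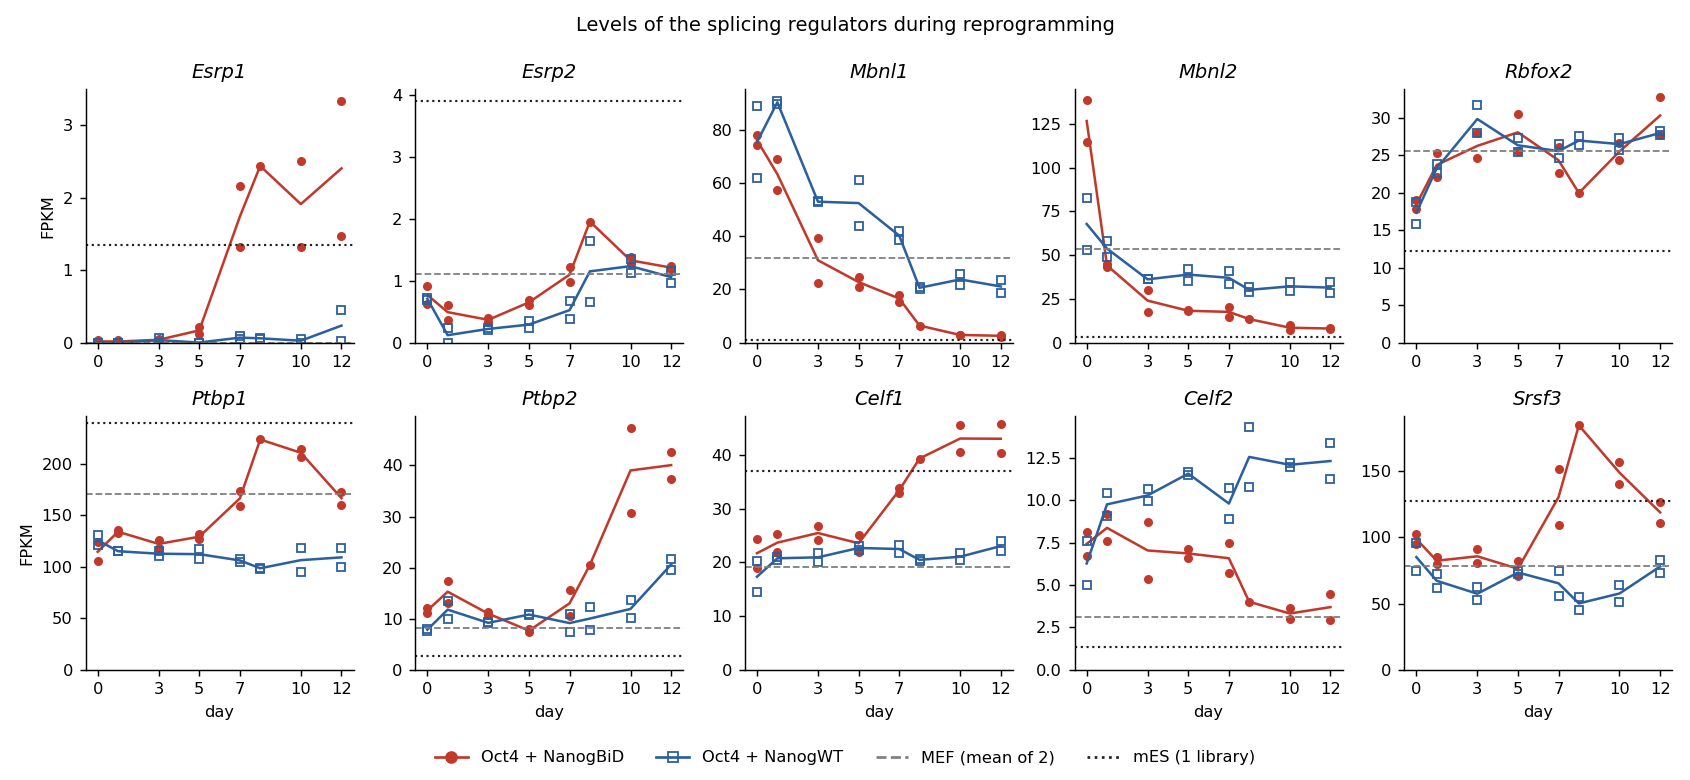
Level of each splicing regulator (y axis, FPKM, linear, each panel with its own scale) against the day (x axis), with a point per sample (filled red circles NanogBiD, open blue squares NanogWT), lines through the means, and the MEF mean and mES as dashed and dotted lines. Mbnl1 ended at 2.24 and 2.84 FPKM with NanogBiD and at 18.5 and 23.7 with NanogWT, and Esrp1 stayed at or below 0.448 in every NanogWT sample.

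Esrp1 (chromosome 4, 11331933 to 11386783, minus strand) encodes an epithelial splicing regulator. It was listed at 0 in both MEF libraries and did not exceed 0.04405 FPKM in any NanogBiD sample up to D3. With NanogBiD it then stood at 0.218 and 0.118 FPKM (D5), 1.31 and 2.17 (D7), 2.44 (D8), 2.51 and 1.31 (D10) and 3.34 and 1.47 (D12). With NanogWT the highest value of the course was 0.448, in replicate 2 of D12, where replicate 1 stood at 0.0196. All NanogBiD samples lay above all NanogWT samples of the same day from D5 on, and from D7 on they lay around the mES value of 1.35. The log2 difference was 0.22 (SE 0.22, adjusted p = 0.536) at D5 and 1.34 (SE 0.22, adjusted p = 0.000107) at D7. Over the whole course the change was 1.69 (SE 0.22, adjusted p = 1.54e-06) with NanogBiD and 0.28 (SE 0.22, adjusted p = 0.336) with NanogWT, and the difference between these changes was 1.41 (SE 0.31, adjusted p = 0.00137). Esrp1 passed the filter on low values only through NanogBiD samples from D7 on, where it is high. Its calls in the time course are therefore descriptions only.

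Epithelial markers, as a sum, were higher with NanogBiD at D7, as Esrp1 was. The sum of Epcam, Cdh1, Krt8, Krt18, Cldn6 and Grhl2 was 31.2 and 35.6 FPKM with NanogBiD at D7 against 5.22 and 5.47 with NanogWT, and 5 of the 6 reached 1 FPKM with NanogBiD against 1 or 2 with NanogWT. Cldn6 was listed at 0 in both NanogWT samples of D7. Their part in the result was not tested. Esrp2 (chromosome 8, 106130319 to 106136974, minus strand), the paralogue, took another course. It stood at 0.9398 and 1.29 FPKM in MEF and 3.902 in mES, was at most 0.695 in the samples of D3 and D5, and came to 1.18 and 1.24 with NanogBiD and 0.964 and 1.15 with NanogWT at D12, near MEF. No comparison of the time course called Esrp2, and its largest difference between combinations on a tested day was 0.46 (SE 0.17, adjusted p = 0.0537), at D7. Nfatc3 overlaps Esrp2 on the opposite strand and reached 21.1 FPKM, and since the use of strand in counting is not stated, the values of Esrp2 are uncertain.

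Mbnl1 and Mbnl2, the muscleblind genes, showed the deepest falls among the 10. Mbnl1 (chromosome 3, 60472830 to 60629750, plus strand) stood at 31.1 and 32.3 FPKM in MEF and 0.911 in mES. At D0 it was above MEF in both combinations, at 74.3 and 78.2 with NanogBiD and 62.2 and 88.9 with NanogWT. With NanogBiD it went on to 57.6 and 69.3 (D1), 22.4 and 39.6 (D3), 24.5 and 21.03 (D5), 15.1 and 18.04 (D7), 6.38 (D8), 2.81 and 2.92 (D10) and 2.24 and 2.84 (D12). With NanogWT it read 91.2 and 89.9 (D1), 52.9 and 53.2 (D3), 61.1 and 44.04 (D5), 38.7 and 41.9 (D7), 20.96 and 20.3 (D8), 25.8 and 21.7 (D10) and 18.5 and 23.7 (D12). The NanogBiD samples lay below both NanogWT samples on every day after D0. The ratio of means, NanogWT over NanogBiD, grew from 1.43 at D1 to 2.31 at D5, 2.43 at D7 and 8.31 at D12.

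The log2 difference of Mbnl1 between the combinations was -0.81 (SE 0.22, adjusted p = 0.0197) at D3, -1.16 (SE 0.22, adjusted p = 0.000781) at D5, -1.23 (SE 0.22, adjusted p = 0.00023) at D7 and -2.64 (SE 0.22, adjusted p = 8.31e-09) at D12. In the fit to the D5 samples alone, the D5 difference had an adjusted p of 0.0591 and was not called. By D12, Mbnl1 had fallen 30.0-fold with NanogBiD and 3.58-fold with NanogWT from D0, and the changes differed by -2.67 (SE 0.31, adjusted p = 1.78e-06). On the log2 way from MEF to mES, NanogBiD cells at D12 had covered 78.4% and NanogWT cells 13.99%.

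Mbnl2 (chromosome 14, 120275669 to 120431697, plus strand) took the same direction. It stood at 50.4 and 56.7 FPKM in MEF and 3.42 in mES, and at D0 at 115 and 138 with NanogBiD against 52.7 and 82.8 with NanogWT. Both NanogBiD samples exceeded both NanogWT samples at that day, by 0.92 (SE 0.23, adjusted p = 0.0475), short of 2-fold. At D1 the order had turned, with 43.4 and 44.8 for NanogBiD and 49.1 and 58.3 for NanogWT, a difference that did not pass the test (-0.27, SE 0.23, adjusted p = 0.733). NanogBiD cells then held 17.7 and 30.3 (D3), 18.5 and 17.8 (D5), 14.8 and 20.3 (D7), 10.1 and 6.899 (D10) and 7.66 and 8.34 (D12), and NanogWT cells 36.1 and 36.1 (D3), 42.3 and 35.4 (D5), 33.2 and 40.8 (D7), 34.8 and 29.4 (D10) and 28.3 and 34.5 (D12). The groups did not overlap on any of these days.

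On the log2 scale Mbnl2 differed by -1.05 (SE 0.23, adjusted p = 0.00355) at D5, -1.05 (SE 0.23, adjusted p = 0.00208) at D7 and -1.84 (SE 0.23, adjusted p = 2.13e-06) at D12. The D7 call was lost without NanogBiD replicate 1 (-0.83), without NanogWT replicate 2 (-0.90) and in a fit to the D7 samples alone. Over the course Mbnl2 fell 15.8-fold with NanogBiD and 2.16-fold with NanogWT. The changes differed by -2.76 (SE 0.33, adjusted p = 2.91e-06), a value that includes the higher start of NanogBiD cells. The fall with NanogWT, -1.06 (SE 0.23, adjusted p = 0.00128), was just past the limit: it came to -0.93 after rescaling to a common total, -0.98 after quantile normalization, -0.74 without NanogWT replicate 2 of D0 and -0.92 without NanogWT replicate 1 of D12, and was not called in these. In a fit to the compared groups alone the value was the same and the adjusted p was 0.0888.

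Fibroblast markers were lower in the same samples. Col1a1, Col1a2, Thy1, Twist2, Prrx1 and Pdgfrb summed to 154 and 258 FPKM with NanogBiD and 392.1 and 426 with NanogWT at D7, and to 176 and 276 against 1539 and 1946 at D12, with 5 or 6 of the 6 at 1 FPKM or more in these samples. On the muscle list, Des (desmin) averaged 74.8 FPKM with NanogWT and 10.4 with NanogBiD at D7, while Myod1 and Myog were listed at 0 in both. Only Des and Actc1 of this list passed the filter on low values, and Myod1, Myog, Myh3 and Tnnt2 did not. The list therefore does not show that muscle cells were present. The part of fibroblasts or other cells in the muscleblind values was not tested.

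**Figure D2:**
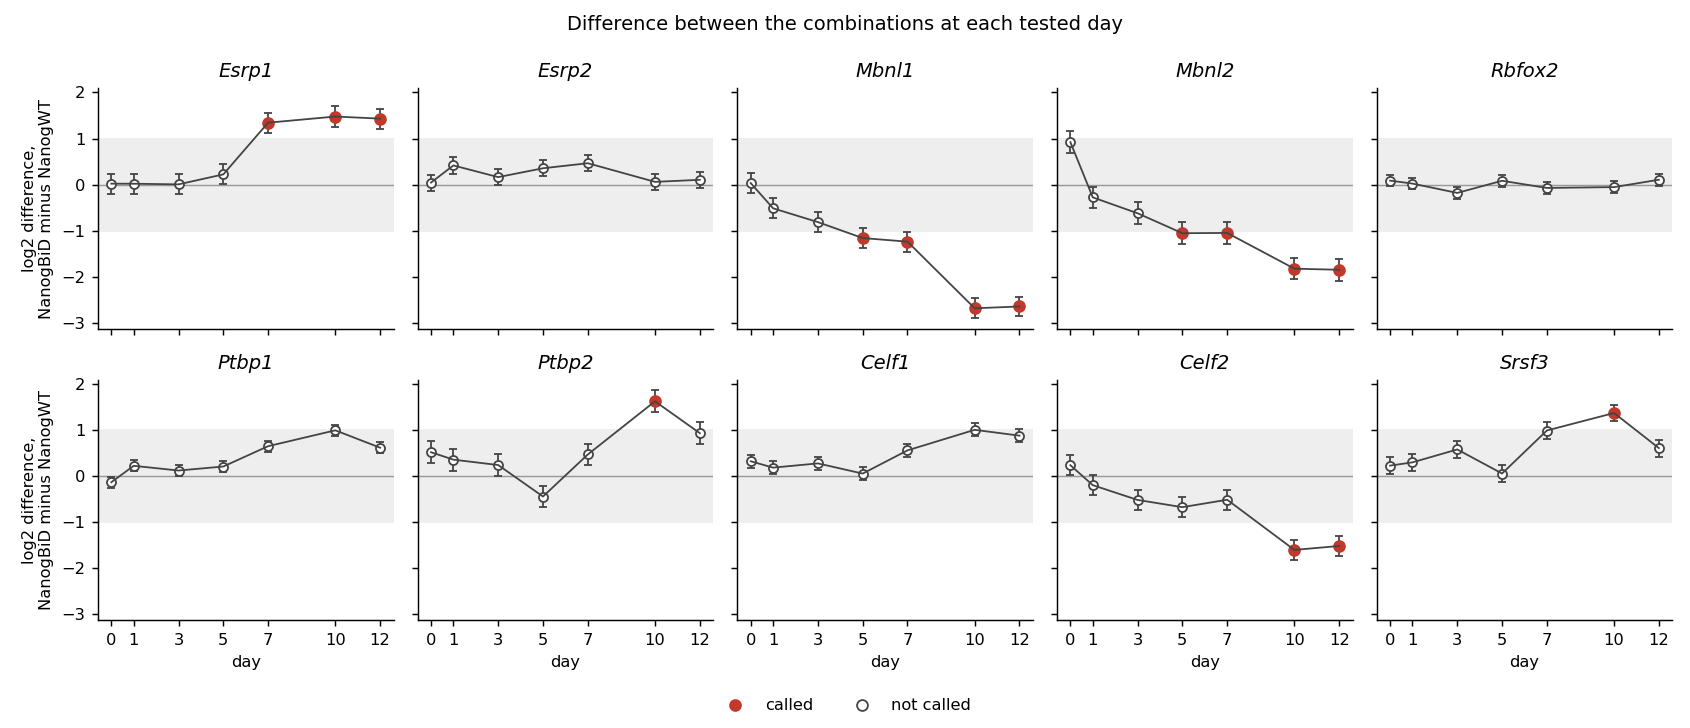
Log2 difference between NanogBiD and NanogWT (y axis, log2(FPKM + 1) scale, positive where NanogBiD was higher) on each of the 7 tested days (x axis), with bars of 1 SE from limma, filled red points for called differences and a grey band for less than 2-fold. Mbnl1 went from 0.03 at D0 to -2.64 at D12, whereas Rbfox2 stayed between -0.18 and 0.11.

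Rbfox2 (chromosome 15, 77078990 to 77307004, minus strand), a widely expressed regulator that binds UGCAUG, was called on no tested day between the combinations. It stood at 25.9 and 25.2 FPKM in MEF and 12.3 in mES. At D0 it was at 19.003 and 17.9 with NanogBiD and 15.9 and 18.8 with NanogWT, at D7 at 26.1 and 22.6 against 26.4 and 24.7, and at D12 at 27.8 and 32.8 against 27.7 and 28.3. The samples of the combinations overlapped on all tested days except D3, and the log2 difference ranged from -0.18 (SE 0.13, adjusted p = 0.461) at D3 to 0.11 (SE 0.13, adjusted p = 0.511) at D12. Between D0 and D12 it differed by 0.68 (SE 0.13, adjusted p = 0.00011) with NanogBiD and 0.67 (SE 0.13, adjusted p = 0.00033) with NanogWT, both short of 2-fold. All D12 samples lay above both MEF samples, on the far side from mES.

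Ptbp1 (chromosome 10, 79854427 to 79864771, plus strand), the general repressor of neuronal exons, had the highest FPKM of the 10 in MEF and mES, on a scale that corrects for length. It stood at 166 and 176 FPKM in MEF and 239 in mES. With NanogBiD it went from 124 and 105 at D0 to 174 and 159 at D7, 224 at D8, 215 and 207 at D10 and 173 and 160.4 at D12. With NanogWT it read 131 and 121 (D0), 108 and 105 (D7), 95.2 and 118 (D10) and 100.005 and 118 (D12). After D0 the NanogBiD samples lay above the NanogWT samples on every day. The log2 difference was 0.64 (SE 0.12, adjusted p = 0.000498) at D7, 0.99 (SE 0.12, adjusted p = 1.32e-06) at D10 and 0.61 (SE 0.12, adjusted p = 0.000351) at D12, past the p threshold and short of 2-fold. At D10 it passed 2-fold after quantile normalization (1.002) and when single libraries were left out (1.14 without NanogWT replicate 2, 1.01 without NanogBiD replicate 2). Plppr3 and E130317F20Rik overlap Ptbp1 on the opposite strand and reached 37.3 and 9.60 FPKM, and Mir6910, inside Ptbp1 on the same strand, reached 201.4 FPKM, so the values of Ptbp1 are uncertain.

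Ptbp2 (chromosome 3, 119718742 to 119784466, minus strand), the neuronal paralogue, rose late in both combinations, although its level in mES (2.62 FPKM) was below that in MEF (8.95 and 7.39). With NanogBiD it stood at 11.1 and 12.1 FPKM (D0), 7.36 and 7.97 (D5), 10.5 and 15.5 (D7), 20.5 (D8), 30.6 and 47.4 (D10) and 37.4 and 42.7 (D12). With NanogWT it stood at 7.61 and 8.08 (D0), 10.9 and 10.7 (D5), 7.34 and 10.9 (D7), 7.83 and 12.2 (D8), 10.1 and 13.7 (D10) and 19.5 and 21.7 (D12). All D12 samples were above all D0 samples of their combination. The rise to D12 was 3.45-fold with NanogBiD (1.70 on the log2 scale, SE 0.24, adjusted p = 3.85e-06) and 2.63-fold with NanogWT (1.29, SE 0.24, adjusted p = 0.000216). These rises differed by 0.41 (SE 0.33, adjusted p = 0.355), short of the threshold. Between the combinations the difference was 1.61 (SE 0.24, adjusted p = 9.47e-06) at D10 and 0.93 (SE 0.24, adjusted p = 0.00282) at D12, where only the first was called. At D12 it was past 2-fold without NanogBiD replicate 1 (1.02) and without NanogWT replicate 2 (1.001).

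Neural markers were high in the same late samples. Tubb3, Sox1, Map2, Dcx, Pax6 and Stmn2 summed to 464 and 648 FPKM with NanogBiD and 338 and 349.7 with NanogWT at D12, against 34.7 and 50.3 in MEF and 81.3 in mES, and all 6 reached 1 FPKM at D12. Dcx, which marks young neurons, averaged 43.3 with NanogBiD and 25.6 with NanogWT at D12 and was listed at 0 in mES. At D3 and D5 the neural sum with NanogBiD was already 384 to 525.6 FPKM while Ptbp2 was at 7.36 to 11.3. That early sum was mostly Tubb3 and Stmn2, which averaged 231 and 199 FPKM at D3. Only 4 of the 6 markers reached 1 FPKM at D3 and 5 at D5, Dcx averaged 0.00316 at D3, and Map2 averaged 12.2 with NanogBiD against 17.4 with NanogWT. The part of neural cells in the Ptbp2 values was not tested.

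Celf1 and Celf2 bind GU-rich elements and act on splicing in the nucleus and on mRNA decay in the cytoplasm. With NanogBiD they moved in opposite directions. Celf1 (chromosome 2, 90940382 to 91019497, plus strand) stood at 18.5 and 19.9 FPKM in MEF and 37.03 in mES. With NanogBiD it went from 18.96 and 24.4 at D0 to 32.9 and 33.9 at D7, 39.3 at D8 and 45.6 and 40.3 at D12, above the mES value. With NanogWT it read 14.4 and 20.2 at D0, 21.8 and 23.2 at D7 and 22.1 and 23.95 at D12. From D7 on the groups did not overlap. The log2 difference was 0.55 (SE 0.14, adjusted p = 0.00648) at D7, 0.997 (SE 0.14, adjusted p = 7.93e-06) at D10, just short of 2-fold, and 0.87 (SE 0.14, adjusted p = 4.58e-05) at D12. At D10 it was past 2-fold with a pseudocount of 0.1 (1.03), without NanogBiD replicate 1 (1.08) and without NanogWT replicate 2 (1.04). The change from D0 to D12 with NanogBiD was 0.96 (SE 0.14, adjusted p = 9.11e-06), or 1.98-fold, just under the limit. It was just over the limit after rescaling to a common total (1.01), without NanogBiD replicate 2 of D0 (1.14) and without NanogBiD replicate 2 of D12 (1.05).

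Celf2 (chromosome 2, 6539694 to 7509563, minus strand), the more tissue-restricted paralogue, stood at 3.34 and 2.86 FPKM in MEF and 1.34 in mES. At D0 it was at 6.73 and 8.12 with NanogBiD and 4.97 and 7.56 with NanogWT. With NanogWT it reached 11.6 and 11.5 at D5, 8.91 and 10.7 at D7 and 11.3 and 13.4 at D12. With NanogBiD it read 6.58 and 7.13 at D5, 5.703 and 7.45 at D7, 4.01 at D8 and 2.92 and 4.47 at D12. From D3 on all NanogBiD samples lay below all NanogWT samples of the same day. The log2 difference was -0.68 (SE 0.22, adjusted p = 0.0373) at D5, -0.52 (SE 0.22, adjusted p = 0.0834) at D7, -1.60 (SE 0.22, adjusted p = 3.71e-06) at D10 and -1.52 (SE 0.22, adjusted p = 8.84e-06) at D12. Over the whole course it differed by -0.86 (SE 0.22, adjusted p = 0.00194) with NanogBiD and by 0.89 (SE 0.22, adjusted p = 0.00278) with NanogWT, each short of 2-fold, and the changes differed by -1.75 (SE 0.31, adjusted p = 0.000181). Both changes passed 2-fold under some settings. With NanogBiD this was so with a pseudocount of 0.1 (-1.01), after quantile normalization (-1.35) and without replicate 2 of D12 (-1.10), and with NanogWT after rescaling to a common total (1.09), without replicate 2 of D0 (1.15) and without replicate 1 of D12 (1.01). At D12 the NanogBiD samples overlapped MEF, and the NanogWT samples lay above both references.

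Srsf3 (chromosome 17, 29032628 to 29043373, plus strand), an SR protein that promotes exon use, stood at 85.2 and 70.9 FPKM in MEF and 127 in mES. With NanogBiD it was at 102.7 and 94.6 (D0), 81.9 and 70.6 (D5), 109 and 151 (D7), 184 (D8), 140.3 and 157 (D10) and 127 and 111 (D12). With NanogWT it was at 95.6 and 74.4 (D0), 72.3 and 74.4 (D5), 56.01 and 74.5 (D7), 44.9 and 55.2 (D8), 50.8 and 64.3 (D10) and 73.004 and 82.9 (D12). The groups overlapped at D0 and D5 and lay apart on every day from D7 on, with the widest ratio, 3.68, at D8. The log2 difference was 0.98 (SE 0.18, adjusted p = 0.000421) at D7, 1.36 (SE 0.18, adjusted p = 3.59e-06) at D10 and 0.60 (SE 0.18, adjusted p = 0.01) at D12. At D7 it was 1.22 without NanogBiD replicate 1 and 1.18 without NanogWT replicate 2, past 2-fold in both. Its change over the course with NanogBiD was 0.26 (SE 0.18, adjusted p = 0.222).

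Within each combination, 3 of 10 were called from D0 to D7 with NanogBiD (Esrp1 higher, Mbnl1 and Mbnl2 lower) where 18.8% of all genes were, and 0 with NanogWT (17.7%). Without the fold limit the counts were 6 (43.8% of all genes) and 5 (38.7%). Without NanogWT replicate 1 of D0, Mbnl1 (-1.12) and Mbnl2 (-1.15) were called with NanogWT as well. From D0 to D12, 4 of 10 were called with NanogBiD (Esrp1 and Ptbp2 higher, Mbnl1 and Mbnl2 lower; 34.7% of all genes, 61.7% without the fold limit against 8 members) and 3 with NanogWT (Ptbp2 higher, Mbnl1 and Mbnl2 lower; 16.2%, and 38.1% against 6 members). The change differed between the combinations for 4 of 10, Esrp1, Mbnl1, Mbnl2 and Celf2 (23.9% of all genes, 37.1% without the fold limit against 6 members). Where Esrp1 is counted, its part is a description only, because it passed the filter only through NanogBiD samples from D7 on.

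The scaling moved some of these splits. Between D0 and D12 with NanogBiD, members called were 2 higher and 2 lower on FPKM, 3 higher and 2 lower once libraries were rescaled to one total, and 2 higher and 3 lower with quantile normalization. With NanogWT they were 1 and 2, 2 and 1, and 1 and 1. Against FPKM, rescaling shifted the median of all genes by 0.17 with NanogWT, and quantile normalization by -0.36 with NanogBiD and -0.24 with NanogWT.

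Other genes of the splicing machinery were compared as lists. Of 94 listed genes, namely paralogues of the 10, SR proteins, hnRNP proteins, other tissue-restricted regulators and core spliceosome, 92 were tested. From D0 to D12, 43 rose and 3 fell with NanogBiD, with a median of 0.90 against 0.34 for all genes, of which 24.6% rose and 10.2% fell. With NanogWT 13 rose and 1 fell (median 0.42 against 0.19; all genes 12.2% and 3.95%). Rescaling to a common total turned the count with NanogWT into 23 and 0. Quantile normalization gave 36 and 3 with NanogBiD. Set against NanogWT, 11 listed genes were higher and 1 lower in NanogBiD cells at D7, or 13.04% of the 92 against 10.4% of all genes. The split was 35 higher to 2 lower at D10 (40.2% of the list and 27.8% of all genes). It was 10 higher to 2 lower at D12, a smaller share of the list (13.04%) than of all genes (23.4%).

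Of 28 core spliceosome genes 16 rose and 0 fell with NanogBiD (median 1.04), where 24.6% and 10.2% of all genes did. Sf3a2, a subunit of the U2 particle, rose by 2.23 (SE 0.42, adjusted p = 0.000134) with NanogBiD. Snrnp70 and Snrpa, both of the U1 particle, rose by 1.73 (SE 0.39, adjusted p = 0.000764) and 1.62 (SE 0.25, adjusted p = 1.16e-05). Of 22 hnRNP genes 9 rose with NanogBiD (median 0.79), led by Hnrnph3 with 2.25 (SE 0.24, adjusted p = 1.34e-07), Hnrnpa1 with 1.90 (SE 0.25, adjusted p = 2.31e-06) and Hnrnpab with 1.58 (SE 0.36, adjusted p = 0.000917). Of 12 SR protein genes 2 rose (median 0.41), Srsf4 by 2.02 (SE 0.23, adjusted p = 3.87e-07) and Srsf5 by 1.22 (SE 0.42, adjusted p = 0.0174).

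Of 24 genes on the list of other tissue-restricted regulators 12 rose and 2 fell with NanogBiD (median 1.03). The name of the list is loose, since Qk, Elavl1 and Khdrbs1 on it averaged 40.6, 20.3 and 14.1 FPKM at D0 with NanogBiD. The 3 largest rises belonged to genes known from neurons and neural progenitors. Elavl3 went from a mean of 0.0183 to 44.1 FPKM (5.44 on the log2 scale, SE 0.29, adjusted p = 9.21e-12), Msi1 from 2.09 to 52.3 (4.11 on the log2 scale, SE 0.38, adjusted p = 1.48e-08) and Nova2 from 0.106 to 16.7 (3.98 on the log2 scale, SE 0.28, adjusted p = 4.14e-10). With NanogWT the same genes rose by 4.49, 2.88 and 3.12. Rbms1 fell by 2.09 (SE 0.17, adjusted p = 3.62e-09) and Rbms3 by 1.10 (SE 0.20, adjusted p = 0.000102) with NanogBiD. Of 6 tested paralogues of the members 4 rose, among them the neuronal Celf3 by 3.67 (SE 0.14, adjusted p = 1.53e-13), Celf4 by 1.96 (SE 0.18, adjusted p = 2.22e-08) and Celf5 by 1.43 (SE 0.17, adjusted p = 5.42e-07). Mbnl3, the third muscleblind gene, was lower at D12 than at D0 by 1.29 (SE 0.32, adjusted p = 0.00179). At D1 Mbnl3 averaged 43.3 FPKM with NanogBiD and 21.5 with NanogWT, against 6.44 and 4.67 at D0. Elavl3, Nova2 and Celf3 averaged 0.0183, 0.106 and 0.0481 FPKM at D0 with NanogBiD and passed the filter only through later samples. They could be called only as higher, so their calls are descriptions only. The neural marker sums given for Ptbp2 belong to the same samples, and their part in these rises was not tested.

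**Figure D3:**
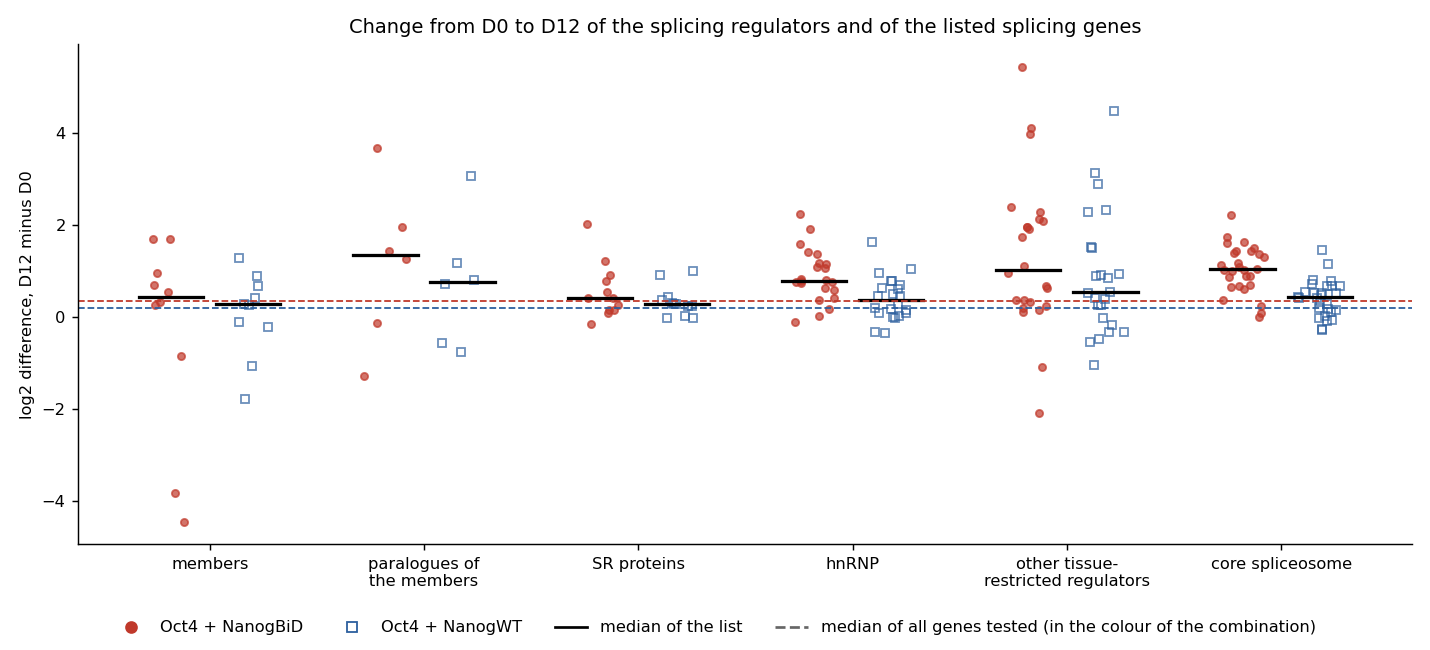
Log2 difference between D12 and D0 (y axis) for the 10 splicing regulators and each list of splicing genes (x axis), one point per gene, with the combinations side by side, a black bar at the median of the list and dashed lines at the median of all genes tested. The medians of the core spliceosome list were 1.04 with NanogBiD and 0.43 with NanogWT, and Mbnl1 and Mbnl2 lay lowest among the 10 in both.

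The genes most like each regulator were ranked by Pearson's r of mean log2 levels over 18 groups (16 of the time course, MEF and mES). These groups share days and libraries, so r is a description only. Esrp1 was most like Pglyrp1, H2-Bl and Nr6a1 (0.981, 0.979 and 0.979) and Esrp2 most like Bysl, Rbsn and Klf4 (0.958, 0.952 and 0.942). For Mbnl1 the genes were Cdh10, Pdcd6ip and Cobll1 (0.984, 0.983 and 0.979) and for Mbnl2 Tbc1d8b, Ghr and Itgb1 (0.978, 0.973 and 0.972). Rbfox2 had Zfp46, Pogk and LOC108167806 (0.934, 0.933 and 0.918), Ptbp1 had Plk1, Kpnb1 and Hspd1 (0.983, 0.976 and 0.970) and Ptbp2 had Lrrc14b, Mir7000 and Fzd3 (0.919, 0.914 and 0.912). Celf1 was followed by Cbll1 and Ccdc14 (0.986 and 0.985), Celf2 by Pde4b, Atrnl1 and Adgrg6 (0.970, 0.970 and 0.968) and Srsf3 by Tra2b, Gm8203 and Mmachc (0.978, 0.965 and 0.965), of which Tra2b encodes another SR-like splicing factor. Between members, r was 0.936 for Mbnl1 with Mbnl2, 0.950 for Esrp1 with Celf1, 0.871 for Ptbp1 with Srsf3, -0.917 for Ptbp1 with Celf2 and 0.121 for Ptbp1 with Ptbp2.

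In established iPSC the comparison with MEF showed how far each regulator lay from its level in fibroblasts. Transcripts were summed per gene, and 6 of 10 were called (40.4% of 13434 genes, of which 21.7% were higher and 18.7% lower). Esrp2 and Srsf3 were higher, and Mbnl1, Mbnl2, Rbfox2 and Celf2 lower. Without the fold limit 9 passed (71.1% of all genes). Rescaling to a common total and quantile normalization each left 1 higher and 4 lower. Between NanogBiD and NanogWT iPSC no gene was called (0.00%, and 0.00% without the fold limit), no member had an unadjusted p under 0.05, and the log2 differences of the members ranged from -0.29 (SE 0.20) for Celf2 to 0.16 (SE 0.13) for Ptbp2. All samples labelled iPSC1 were at a higher passage than those labelled iPSC2, so label and passage cannot be told apart between them. In 2 of them, iPSC1 sample 9 of NanogBiD and iPSC1 sample 3 of NanogWT, the fibroblast markers reached 20.9% and 6.58% of the MEF mean, and without both the same number of members was called.

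Mbnl1 was at 37.7 and 42.4 FPKM in MEF, 1.33 to 9.29 in the 12 iPSC samples (median 2.43) and 1.098 in mES, a log2 difference of -3.55 (SE 0.37, adjusted p = 2.57e-06) between iPSC and MEF. The highest iPSC value came from the NanogBiD sample with the most fibroblast markers. Mbnl2 was at 55.5 and 64.8 in MEF, 3.64 to 11.2 in iPSC (median 5.59) and 3.72 in mES, a difference of -3.17 (SE 0.26, adjusted p = 3.94e-07). Both muscleblind genes thus lay far below MEF in every iPSC sample. Rbfox2, which had not fallen by D12, was at 40.2 and 39.4 in MEF, 14.8 to 21.8 in iPSC (median 18.9) and 17.9 in mES, a difference of -1.05 (SE 0.11, adjusted p = 2.09e-06). Celf2 was at 6.27 and 5.68 in MEF, 0.797 to 3.105 in iPSC (median 1.81) and 2.63 in mES, a difference of -1.39 (SE 0.25, adjusted p = 0.000314).

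Esrp2 was at 0.7901 and 1.53 FPKM in MEF, 1.53 to 5.23 in iPSC (median 3.36) and 3.88 in mES. Its difference of 1.06 (SE 0.23, adjusted p = 0.00105) came to 0.81 without MEF replicate 1 and was then not called. Esrp1, listed at 0 in both MEF samples, was at 0.165 to 3.32 in iPSC (median 0.444) and 1.37 in mES, and its difference of 0.65 (SE 0.39, adjusted p = 0.147) did not pass the test although all 12 iPSC samples were above 0. Srsf3 was at 57.96 and 58.8 in MEF, 91.8 to 159 in iPSC (median 120.1) and 101 in mES. Its difference of 1.01 (SE 0.18, adjusted p = 0.000254) lay at the limit: it came to 0.79 after rescaling to a common total, 0.78 after quantile normalization and 0.999 without MEF replicate 1.

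Ptbp1 was at 149 and 165 FPKM in MEF, 218 to 300.5 in iPSC (median 251) and 214 in mES, a difference of 0.71 (SE 0.11, adjusted p = 7.97e-05). Celf1 was at 10.7 and 11.02 in MEF, 12.8 to 23.1 in iPSC (median 20.8) and 20.2 in mES, a difference of 0.85 (SE 0.16, adjusted p = 0.000396). Ptbp2 was at 9.03 and 7.64 in MEF, 3.47 to 6.67 in iPSC (median 4.9997) and 2.67 in mES, a difference of -0.66 (SE 0.17, adjusted p = 0.00382). For these 3 genes no iPSC sample overlapped MEF, and the differences stayed short of 2-fold. Without the fold limit 71.1% of all genes passed in this comparison. The Ptbp2 level of iPSC was below MEF, whereas NanogBiD cells at D12 had 37.4 and 42.7 FPKM in the gene table. The tables were made separately, and the same MEF and mES libraries correlated between them across genes at r = 0.929 to 0.937.

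**Figure D4:**
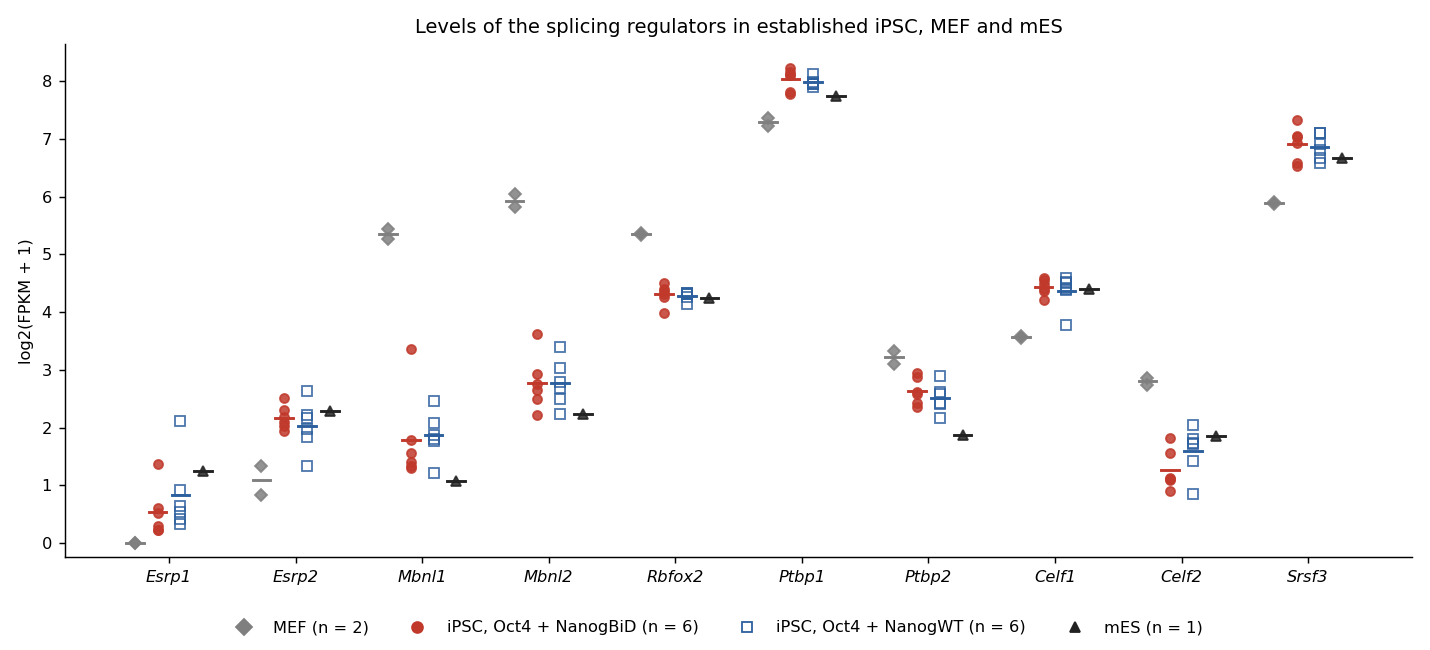
Level of each splicing regulator (y axis, log2(FPKM + 1) from transcripts summed per gene) in MEF (n = 2, diamonds), NanogBiD iPSC (n = 6, filled circles), NanogWT iPSC (n = 6, open squares) and mES (n = 1, triangle), with a short line at each mean. The iPSC samples of both combinations lie far below MEF for Mbnl1 and Mbnl2, and for Esrp2 the lowest iPSC sample comes close to the higher MEF sample.

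Of the 94 listed splicing genes 84 were tested in iPSC, and 35 were higher and 3 lower than in MEF, or 45.2% against 40.4% of all genes, of which 21.7% were higher and 18.7% lower (median 0.89 against 0.22 for all genes). Rescaling to a common total shifted the median of all genes by -0.19 and gave 23 and 4, and quantile normalization gave 22 and 3. Of 28 core spliceosome genes 18 were higher, among them Snrpg with 1.85 (SE 0.14, adjusted p = 2.05e-07), Srrm1 with 1.52 (SE 0.11, adjusted p = 7.79e-08) and Sf3a1 with 1.49 (SE 0.13, adjusted p = 4.26e-07). Of 12 SR protein genes the 3 that were higher were Srsf7 with 1.32 (SE 0.12, adjusted p = 7.53e-07), Tra2b with 1.29 (SE 0.13, adjusted p = 1.85e-06) and Srsf2 with 1.16 (SE 0.10, adjusted p = 7.58e-07). Of 22 hnRNP genes 6 were higher, led by Hnrnpc with 1.64 (SE 0.12, adjusted p = 1.34e-07), Hnrnpd with 1.30 (SE 0.12, adjusted p = 7.18e-07) and Pcbp1 with 1.27 (SE 0.13, adjusted p = 2.46e-06).

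Of 18 tested genes on the list of other tissue-restricted regulators 7 were higher and 2 lower in iPSC. Rbpms2 was higher by 3.16 (SE 0.19, adjusted p = 2.12e-08), Rbm38 by 3.01 (SE 0.16, adjusted p = 6.53e-09) and Elavl2 by 2.36 (SE 0.21, adjusted p = 6.9e-07), while Rbms3 fell by 3.16 (SE 0.22, adjusted p = 7.99e-08) and Rbms1 fell by 1.78 (SE 0.15, adjusted p = 3.42e-07). Of 4 tested paralogues, Celf5 was higher with 1.15 (SE 0.17, adjusted p = 5.62e-05) and Mbnl3 lower with -1.15 (SE 0.17, adjusted p = 5.78e-05). Elavl3 and Celf3, which had risen by D12, averaged 0.174 and 0.0210 FPKM in iPSC and were not tested there. Rbms1, Rbms3 and Mbnl3 were lower both in NanogBiD cells at D12 against D0 and in iPSC against MEF.

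Transcripts of the members were compared in the 12 iPSC and 2 MEF samples. Of 164 transcripts 52 passed the filter on levels, and 18 were called, 1 higher and 17 lower in iPSC (26.2% of 27450 transcripts). Of the 17, 7 belonged to Mbnl1, 4 to Rbfox2, 3 to Mbnl2, 2 to Celf2 and 1 to Celf1. Apart from Celf1, these genes were also called lower as whole genes. The 26.2% covers both directions, and the split by direction was not counted over all transcripts. A transcript listed at 0 in all iPSC samples could not pass this filter without MEF and could be called only lower. How many of the 17 were of this kind was not counted, so the split is a description only. Shares of a gene's summed FPKM were tested where the sum reached 1 FPKM in every sample and the share reached 10% in at least 2 samples. They were called for 2 of 38 member transcripts at a limit of 10 percentage points (3.50% of 17895 transcripts). XM_006518376.3 of Mbnl2 made up 42.2% and 44.7% in MEF and 3.49% ± 5.56 (SD, n = 12) in iPSC, a difference of -40.2 percentage points (limma, adjusted p = 0.000397). XM_017319668.1 of Mbnl1 made up 18.3% and 12.6% in MEF and was listed at 0 in all iPSC samples (limma, difference -15.5, adjusted p = 0.00129). It could pass the filter on shares only through the MEF samples, where it is high. The direction of its call was therefore fixed in advance, and the call is a description only. The position of these transcripts was not analysed here. StringTie divides reads among overlapping transcripts by estimate, and Mbnl1 has 39 listed transcripts, so its shares are uncertain.

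Srsf3 has only 2 listed transcripts, which makes its pair the simplest. The transcript with the stop-bearing exon (NR_036613.1) made up 22.1% and 20.9% of Srsf3 in MEF, 4.199% to 15.9% in iPSC (median 9.57%) and 10.6% in mES. All 12 iPSC samples lay below both MEF samples, but the difference of -12.1 percentage points did not pass the threshold (limma, adjusted p = 0.0797). The coding transcript (NM_013663.5) was higher in iPSC by 1.21 on the log2 scale (limma, adjusted p = 0.000443) and was the only member transcript called higher. The exon-containing transcript differed by -0.27 (limma, adjusted p = 0.655).

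The Ptbp1 transcript with the 78-base exon made up 91.5% and 96.2% of its pair in MEF, 78.7% to 96.8% in iPSC (median 87.8%) and 75.2% in mES. iPSC and MEF overlapped, and the share of all Ptbp1 FPKM differed by -5.301 percentage points (limma, adjusted p = 0.677). The Mbnl2 transcript with the 54-base exon was at 40.3% and 0% of its pair in MEF, 43.2% to 100% in iPSC (median 88.9%) and 100% in mES. The MEF libraries stood far apart from each other, and the difference in share of the whole gene, 52.4 percentage points, missed the threshold (limma, adjusted p = 0.0751). For Rbfox2, NM_001110827.2 made up 16.99% and 20.8% in MEF, 10.96% to 67.1% in iPSC and 82.9% in mES (limma, adjusted p = 0.515 for iPSC against MEF).

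For Celf1 and Ptbp2 the transcripts shared out differently even between the MEF libraries. NM_017368.3 of Celf1 made up 2.65% and 56.3% in MEF and 0% to 59.96% in iPSC, and XM_006498661.1 of the same gene 58.4% and 0% in MEF. NM_019550.2 of Ptbp2 was steadier, at 18.6% and 23.5% in MEF, 20.6% to 48.3% in iPSC and 36.1% in mES (limma, adjusted p = 0.446). Esrp1, Esrp2 and Celf2 had no test of shares, because their sums were under 1 FPKM in at least 1 sample. NM_194055.3 of Esrp1 had a median share of 97.5% in iPSC but made up 6.49% in mES.

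Itga6 is no member but a listed target, whose ends are known to differ between stem and differentiated cells. The transcript with the 130-base exon made up 86.3% and 78.9% of Itga6 in MEF, 0% to 32.2% in iPSC (median 3.999%) and 0% in mES. MEF and iPSC did not overlap, and the difference was -71.6 percentage points (limma, adjusted p = 6.6e-05), or -73.4 without the 2 iPSC samples rich in fibroblast markers. The NanogBiD samples of iPSC1 stood at 19.7% to 32.2% and those of iPSC2, which were at a lower passage, at 0% to 0.182%. The NanogWT samples did not divide this way, with 2.03%, 5.97%, 0% and 22.4% in iPSC1 and 18.4% and 0% in iPSC2. Pkm, whose paired exons PTBP1 is known to set, had the PKM2 form at 78.3% and 77.2% of the pair in MEF, 62.96% to 80.8% in iPSC and 79.9% in mES. One Enah transcript (XM_006496647.3) was called, at 0% and 40.5% in MEF and 68.8% ± 15.6 (SD, n = 12) in iPSC (limma, adjusted p = 0.0276), with MEF libraries again far apart.

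**Figure D5:**
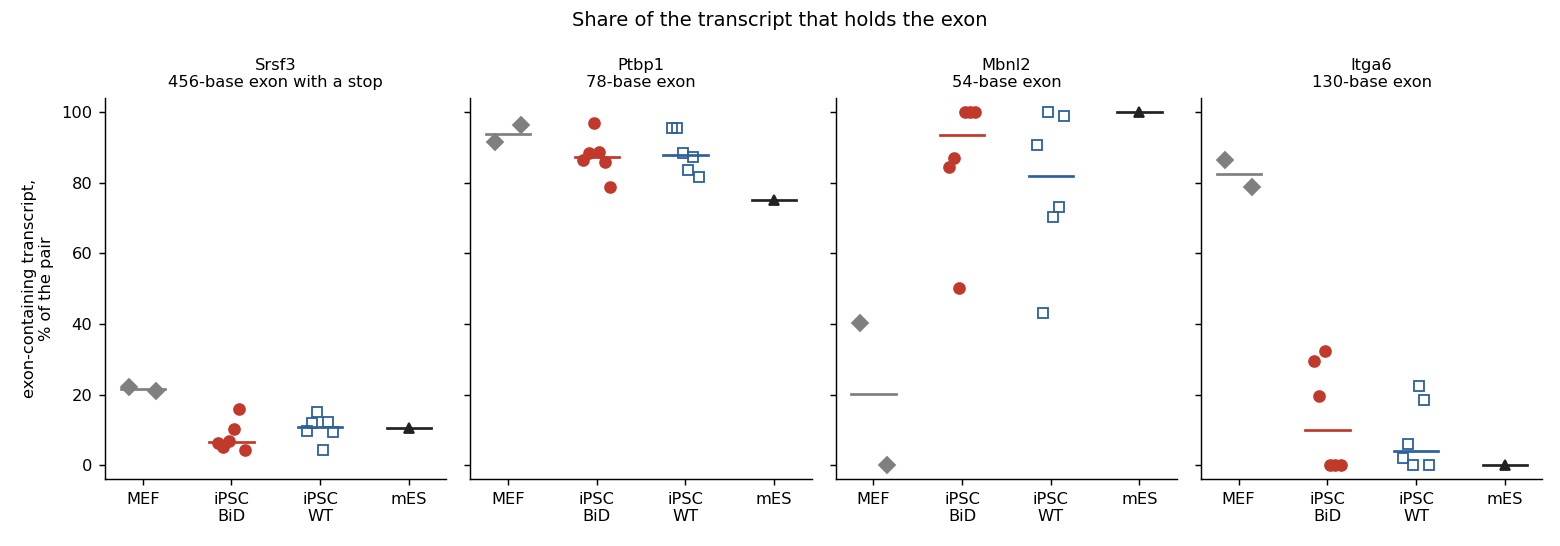
Share of the exon-containing transcript in its pair (y axis, percent of the summed FPKM of both transcripts) for Srsf3, Ptbp1, Mbnl2 and Itga6 in MEF, NanogBiD iPSC, NanogWT iPSC and mES (x axis), one point per sample and a line at the median. iPSC samples lie below MEF for Srsf3 and Itga6, overlap MEF for Ptbp1 and lie above it for Mbnl2, where MEF stands at 40.3% and 0%.

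Of 8 listed targets of these regulators, 5 were called at the level of the gene in each comparison, where 34.7% of all genes were called from D0 to D12 with NanogBiD and 40.4% in iPSC against MEF. From D0 to D12 with NanogBiD, Pkm rose by 1.71 (SE 0.25, adjusted p = 9.41e-06), Enah by 1.22 (SE 0.15, adjusted p = 9.62e-07) and Itga6 by 1.17 (SE 0.17, adjusted p = 6.17e-06), while Cd44 fell by 4.19 (SE 0.20, adjusted p = 3.29e-12) and Foxp1 by 1.39 (SE 0.17, adjusted p = 5.86e-07). In iPSC against MEF, Itga6 was higher by 1.38 (SE 0.14, adjusted p = 1.66e-06) and Enah by 1.33 (SE 0.26, adjusted p = 0.000509), while Cd44 fell by 4.80 (SE 0.94, adjusted p = 0.000554), Foxp1 by 3.97 (SE 0.41, adjusted p = 2.62e-06) and Fgfr2 by 2.64 (SE 0.35, adjusted p = 2.17e-05). Isoforms in the time course were not analysed here.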

How the data were processed

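The authors sequenced mRNA, trimmed reads with Trim Galore 0.6.4, aligned them to mm10 with HISAT2 2.2.1 and ran StringTie 2.2.1. What they deposited is FPKM, in a gene table (34 samples) and a transcript table (15 samples). The annotation and the use of strand are not given in the sources used here. FPKM carry no counts, so no count model was applied.

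Groups followed the labels. Values were analysed as log2(FPKM + 1), which understates changes of low genes. Genes or transcripts with at least 1 FPKM in at least 2 samples were fitted with limma 3.58.1 (R 4.3.3, with trend, two-sided, Benjamini-Hochberg over all features) in one model per table with a mean per group (16 groups in the time course). The transcript table was summed per gene. Shares were fitted in percent, without the trend, for genes with at least 2 transcripts and a sum of at least 1 FPKM in every sample. A transcript also needed a share of at least 10% in at least 2 samples. A call needed an adjusted p under 0.05 and 2-fold, or 10 percentage points. A gene or transcript hardly detected in a compared group could be called only as higher in the other, and such calls are descriptions only. D8 and mES were described only. The fits were tested on simulated data. Relative depth was the commonest ratio of low values between libraries, set to the median of D0 to D7, and gives no interval. Ratios are of mean FPKM. Whether groups overlapped was described for the members only and was not counted over all genes. With 2 samples per group, lack of overlap is therefore no sign that a gene stands out.

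The members, lists and tests were chosen with earlier results of these data known. Named were all members, per list the called genes with the largest changes (up to 3 in each direction, from D0 to D12 with NanogBiD and in iPSC), markers and targets, transcripts with a mean share of at least 10% (of which the text gives a part), and the 3 genes most like each member (1 gene for Celf1 is not reported here). Alternatives were a pseudocount of 0.1, no filter, other scalings, no fold limit, fits to the compared groups alone, a replicate block, other limits on shares and samples left out. After seeing the data, leaving out iPSC samples with over 5% of the MEF fibroblast marker level was added. Sequences and positions came from GENCODE M21. Python 3.11.15, pandas 2.3.3, numpy 2.4.6 and matplotlib 3.10.9 were used.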

Additional observations from a re-analysis of the deposited data

Results flagged for a closer look

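For 4 members the change from D0 to D12 differed between the combinations, tested as an interaction in limma. The NanogBiD change minus the NanogWT change on the log2 scale was 1.41 for Esrp1, -2.67 for Mbnl1, -2.76 for Mbnl2 and -1.75 for Celf2. The deeper NanogWT libraries of D12 enter these values. Esrp1 passed the filter on low values only through the late NanogBiD samples, where it is high, so its value is a description only.

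Among the iPSC, 6 of 28 groups of 6 samples (members and exon shares, per combination) had 1 sample far from the others by Dixon's criterion, which chance meets in about 1 of 20. Esrp1 stood at 1.597 FPKM in iPSC1 sample 4 of NanogBiD and at 3.32 in iPSC1 sample 2 of NanogWT. Mbnl1 stood at 9.29 FPKM in iPSC1 sample 9 of NanogBiD. In the same sample, which held fibroblast markers at 20.9% of the MEF mean, the share of the exon-containing Mbnl2 transcript was 50.2%. Ptbp1 stood at 277 FPKM in iPSC2 sample 6 of NanogWT, and Celf1 stood at 12.8 FPKM in iPSC1 sample 1 of NanogWT.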

How the results depend on the processing

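No member difference that passed the p threshold, and none of the transcript shares followed, changed direction under the alternatives run. Other differences were not checked for direction. The median of all genes from D0 to D12 did turn under quantile normalization. It went from 0.34 to -0.013 with NanogBiD and from 0.19 to -0.051 with NanogWT. Without the fold limit, members called between the combinations numbered 1 at D0 (1.91% of all genes), 1 at D3 (10.1%), 6 at D7 (28.4%) and 8 at D12 (50.7%). Members called from D0 to D7 numbered 6 with NanogBiD (43.8%) and 5 with NanogWT (38.7%), and from D0 to D12 they numbered 8 (61.7%) and 6 (38.1%). Listed splicing genes then numbered 45 at D7 (28.4% of all genes), 61 at D12 (50.7%), 72 from D0 to D12 with NanogBiD (61.7%) and 70 in iPSC (71.1%). Quantile normalization left 25 listed genes called in iPSC against 38. The fit to the compared groups alone called 1 member at D5. Leaving out 1 replicate at a time gave 0 to 1 members at D0 and at D3, 0 to 2 at D5 and 0 to 2 from D0 to D7 with NanogWT. The lone sample left was assumed to vary like the other groups. The libraries whose omission moved these counts were NanogWT replicate 2 at D0, NanogBiD replicate 2 at D3, NanogWT replicate 1 at D5 and, for D0 to D7, NanogWT replicate 1 at D0. Member transcripts called by share were 0 with a gene sum of at least 5 FPKM, where Mbnl1 and Mbnl2 were no longer tested because some iPSC samples lay below it. They were 1 with a limit of 20 percentage points. Rescaling to a common total gave 23 listed genes higher and 0 lower from D0 to D12 with NanogWT, against 13 and 1. With the NanogWT iPSC1 samples 1# and 1#-2 averaged, 6 members and 38 listed genes were called in iPSC, as before.

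Deviations of same-numbered samples correlated at 0.227, 0.135, -0.065, -0.043, 0.395, 0.122 and 0.020 on the tested days, so the numbers were not taken as pairs. With the replicate number as a block, 2 members were called at D5, 3 at D7, 6 at D10 and 4 at D12, as without it.

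Low levels limit Esrp1 and Esrp2 most, and from D8 on depth and combination cannot be told apart.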
